A study of Mus musculus with 30 samples.

Results

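The 10 genes described here are Ifit1, Ifit2, Ifit3 and Ifit3b, the ubiquitin-like modifier Isg15 and its protease Usp18, the neighbours Rsad2 and Cmpk2, the exonuclease gene Isg20, and Mx1. They were taken by gene symbol from a table of 25611 gene rows, each symbol stood in 1 row, and all 10 were among the 14808 genes that passed the filter on low counts. RNA was sequenced from mouse bone marrow dendritic cells grown with the cytokine FLT3L at 200 ng/ml for 6 to 7 days. The cells came from mice with a knockout of Rubcn (KO), whose product Rubicon acts in LC3-associated phagocytosis, or from wild-type mice (WT). In each genotype cells were untreated, or had received ovalbumin protein (OVA) for 30 min, OVA for 4 h, apoptotic Jurkat cells for 30 min or apoptotic Jurkat cells for 4 h. Jurkat is a human T-cell leukaemia line. There were 10 groups of 3 libraries, or 30 libraries. The labels give no time for the untreated cells, and no group was labelled as kept for 30 min or 4 h without OVA or Jurkat cells. In comparisons with untreated cells, treatment and time in culture therefore cannot be told apart. The labels give neither strain, age nor sex of the mice, and do not say whether libraries of a group came from separate mice or cultures. P-values therefore measure only the spread between these libraries, which may be technical.

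These genes belong to the type I interferon response. Interferon binds the receptor IFNAR, the kinases JAK1 and TYK2 are activated, and the transcription factor complex ISGF3, which holds STAT2 and IRF9, binds interferon-stimulated response elements (ISREs) in promoters. IFIT proteins bind viral RNA and hinder its translation. ISG15 is attached to other proteins by an enzyme chain, USP18 removes it and also dampens signalling at IFNAR, and RSAD2 (viperin) makes an altered nucleotide that stops viral polymerases. Dendritic cells express many of these genes at a low level at rest and raise them when they sense nucleic acids or receive interferon.

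Promoters are shown for the 5 genes, of 8 with a promoter window, that hold a match to the core of the sequence that ISGF3 binds. RefSeq promoter windows on GRCm38.p6, the assembly also called mm10, were matched by symbol for 8 of the 10 genes, all but Usp18 and Mx1. The 250 bases before each start were searched for the ISRE core, written GAAANNGAAA or, on the other strand, TTTCNNTTTC. The core was in 5 of the 8 genes (62.5%), against 3.46% of the 27025 genes with a window and 6 of 21 other interferon-stimulated genes (28.6%). Ifit3 and Ifit3b, close copies of each other, are both counted among the 5. In the sequences, printed 5′ to 3′ on the strand of the gene and ending at the base before the start, capitals mark the ISRE core.
Ifit1, chr19:34640639-34640888, plus strand: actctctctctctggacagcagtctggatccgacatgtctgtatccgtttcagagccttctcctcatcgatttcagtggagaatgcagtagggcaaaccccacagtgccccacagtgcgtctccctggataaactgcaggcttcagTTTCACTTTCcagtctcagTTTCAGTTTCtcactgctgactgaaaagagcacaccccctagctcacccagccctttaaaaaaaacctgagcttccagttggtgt
Ifit3, chr19:34583279-34583528, plus strand: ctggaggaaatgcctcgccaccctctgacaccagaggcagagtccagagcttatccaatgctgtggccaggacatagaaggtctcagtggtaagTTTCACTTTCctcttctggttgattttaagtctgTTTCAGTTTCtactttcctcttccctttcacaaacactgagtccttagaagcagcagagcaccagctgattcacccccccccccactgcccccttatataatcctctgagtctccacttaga
Ifit3b, chr19:34607707-34607956, plus strand: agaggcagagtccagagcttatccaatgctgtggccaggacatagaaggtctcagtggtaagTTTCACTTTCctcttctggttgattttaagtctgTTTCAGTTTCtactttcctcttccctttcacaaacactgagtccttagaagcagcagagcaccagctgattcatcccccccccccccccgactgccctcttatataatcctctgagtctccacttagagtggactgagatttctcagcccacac
Isg15, chr4:156200819-156201068, minus strand: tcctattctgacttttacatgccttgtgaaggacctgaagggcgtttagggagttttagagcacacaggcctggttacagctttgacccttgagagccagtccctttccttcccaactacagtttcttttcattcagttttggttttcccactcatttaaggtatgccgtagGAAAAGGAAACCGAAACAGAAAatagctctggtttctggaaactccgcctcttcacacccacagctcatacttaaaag
Rsad2, chr12:26456453-26456702, minus strand: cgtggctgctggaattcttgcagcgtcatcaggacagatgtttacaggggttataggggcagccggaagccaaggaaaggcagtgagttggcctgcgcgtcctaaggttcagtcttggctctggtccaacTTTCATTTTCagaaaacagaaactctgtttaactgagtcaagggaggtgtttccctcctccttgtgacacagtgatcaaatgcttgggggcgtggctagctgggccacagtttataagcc

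Ifit1 held 2 cores, which began 104 and 85 bases before the start. Ifit3 and Ifit3b held the same 2 cores in the same order, with identical bases between them, at 156 and 122 bases in Ifit3 and at 188 and 154 bases in Ifit3b. Isg15 held 3 overlapping cores, read as GAAANNGAAA where the other 4 promoters hold TTTCNNTTTC, at 78, 72 and 66 bases. Rsad2 held 1, at 120 bases. No core was found in these windows of Cmpk2, Ifit2 or Isg20, although Ifit2 and Isg20 have more than 1 annotated start. A match describes the letters only.

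In the files, on mm10, the 4 Ifit genes lie on chromosome 19 within 99316 bases, all on the plus strand. Ifit2 is at chr19:34550694-34576534, Ifit3 at chr19:34583529-34588982, Ifit3b at chr19:34607957-34613401 and Ifit1 at chr19:34640889-34650009. Rsad2 (chr12:26442743-26456452, minus strand) and Cmpk2 (chr12:26469215-26479837, plus strand) are 12762 bases apart and are transcribed away from each other. Isg15 is at chr4:156199424-156200818 on the minus strand, Isg20 at chr7:78913424-78920396 and Usp18 at chr6:121245906-121270917, both on the plus strand. Mx1, at chr16:97447035-97462906 on the minus strand, is a protein-coding gene in GENCODE and a transcribed pseudogene in RefSeq, and many laboratory mouse strains carry an inactive copy of it. All values are of whole gene rows, so exons, introns and untranslated regions are not told apart. The transcripts of Ifit3 and Ifit3b are 97.8% identical over 1700 aligned bases, and 44.5% of the 50-base stretches of Ifit3b occur unchanged in Ifit3, so the split of reads between these 2 genes is uncertain. Usp18 shares 124 exon bases with a gene on the other strand, Gm44148, and the use of strand in the counting is not given in the sources used here.

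Library totals ranged from 9.73 M counts (KO, 30 min OVA, library 3) to 51.6 M counts. Levels are given as CPM, counts scaled to a fixed library total, on library sizes scaled by TMM. Rubcn stood at 70.4 to 75.8 CPM in untreated KO libraries and at 95.6 to 104.6 CPM in WT libraries, a KO level of 73.6% (edgeR quasi-likelihood FDR 1.69e-07). It was lower in KO in all 5 conditions, at 73.6% to 84.8% of WT. The summed level of 7 dendritic cell markers was at least 21781 CPM in every library, and none of the 7 was at 0. Most of the sum came from Cd74, H2-Aa and H2-Ab1 of the MHC class II pathway. Their untreated WT means were 9258, 6283 and 4489 CPM, against 567 for Flt3, 486 for Itgax and 88.7 for Zbtb46. In WT after 4 h of Jurkat cells Flt3 (230 CPM) and Itgax (341 CPM) were lower and Zbtb46 (110 CPM) was higher.

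One library stood apart in these genes and is named before the results. In KO cells given Jurkat cells for 30 min, all 10 genes were at least 2-fold higher in library 1 than in both other libraries of the group, while 34 of the 10160 genes with a group mean of at least 5 CPM were. Rsad2 stood at 106, 10.4 and 20.3 CPM in libraries 1, 2 and 3, Ifit1 at 57.9, 7.59 and 12.2 CPM and Isg15 at 52.6, 10.1 and 14.8 CPM. Libraries 2 and 3 held no such gene. All 30 other interferon-stimulated genes of a list were highest in library 1, 7 of them by at least 2-fold. The same library had 35 counts of type I and III interferon genes, 11 of them of Ifnb1, against 1 and 8 counts in libraries 2 and 3. Its summed T-lineage markers, which were higher in the groups given Jurkat cells, were 117 CPM against 118 and 105 CPM. The part of interferon in the levels of this library was not tested. Because all groups share 1 estimate of the spread, this library also widens the errors of comparisons it does not enter. Results are therefore given with all 30 libraries and, as an alternative added after the data were seen, with 29.

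**Figure D1:**
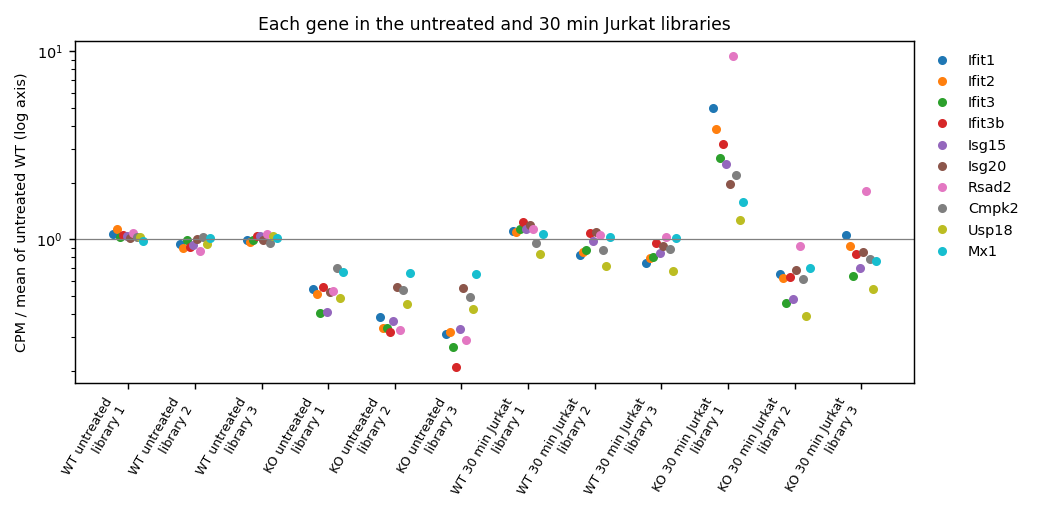
Level of each of the 10 genes in the 12 untreated and 30 min Jurkat libraries, as CPM divided by the mean of the 3 untreated WT libraries (log axis; 1 point per gene and library). The 3 untreated KO libraries lie under 1 for every gene, and KO 30 min Jurkat library 1 lies apart from libraries 2 and 3, with Rsad2 at 106.1 CPM against 10.4 and 20.3 CPM.

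At rest, KO cells held less RNA of all 10 genes than WT cells. The KO level ran from 33.4% of WT for Ifit3 to 65.9% for Mx1, with a median of 40.1%, and the 3 KO libraries lay under the 3 WT libraries for each gene. In bulk RNA fewer cells of a type and less RNA per cell cannot be told apart. By edgeR's quasi-likelihood test 8 of the 10 fell at an FDR under 0.05, against 3.97% of all genes tested; 10 of 10 did not overlap downward, against 11.8% of all genes. Without the library that stood apart, all 10 fell (largest FDR 4.81e-05), against 4.17% of all genes. The median log2 fold change of the 10 was -1.32, and that of all genes was -0.01. With all other libraries kept, 5 were called without KO untreated library 2, without KO untreated library 3 or without WT untreated library 1.

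Among the Ifit genes, Ifit3 stood at 5.19, 4.33 and 3.43 CPM in untreated KO and at 13.2, 12.8 and 12.7 CPM in WT. Ifit2, the gene with the highest CPM of the 4, stood at 15.5, 10.3 and 9.82 CPM in KO and at 34.5, 27.3 and 29.6 CPM in WT. Ifit1, which binds RNA with an incompletely methylated cap, stood at 6.32, 4.52 and 3.67 CPM in KO and at 12.4, 11.02 and 11.6 CPM in WT. In each of the 3 genes every KO library was under every WT library, and KO library 1 was the highest of its group. The log2 fold changes were -1.58 for Ifit3 (SE 0.391, edgeR FDR 0.00779) and -1.36 for Ifit2 (SE 0.377, edgeR FDR 0.0184). Ifit1, at -1.27, missed the threshold with all libraries (SE 0.454, edgeR FDR 0.0758) and passed it with 29 (SE 0.184, edgeR FDR 1.39e-05). Ifit3b, a close copy of Ifit3, was the lowest of the 10, at 1.28, 0.746 and 0.481 CPM in KO and 2.45, 2.09 and 2.41 CPM in WT (edgeR FDR 0.0424).

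Isg15 and Usp18, modifier and remover, were both lower in KO at rest. Isg15 stood at 8.59, 7.71 and 6.99 CPM in KO and at 21.7, 19.5 and 21.7 CPM in WT, a KO level of 37.0% (log2 -1.43, SE 0.339, edgeR FDR 0.00537). Usp18 stood at 24.4, 22.5 and 21.1 CPM in KO and at 51.4, 46.9 and 51.6 CPM in WT, a KO level of 45.4% and the smallest FDR of the 10 (0.000712, edgeR). The libraries of the genotypes were far apart in both genes compared with the spread within a genotype. The 4 genes of the enzyme chain that attaches ISG15 fell with them by edgeR's test, though by less (3.97% of all genes fell). They are the activating enzyme Uba7 (KO at 73.5% of WT, FDR 1.96e-06), the conjugating enzyme Ube2l6 (68.2%, FDR 0.000119), and the ligases Herc6 (64.8%, FDR 0.000509) and Trim25 (90.8%, FDR 0.0194). All 4 were also lower in KO after 30 min of OVA, 4 h of OVA and 4 h of Jurkat cells. The shares of all genes lower there were 6.13%, 6.35% and 13.5%. After 30 min of Jurkat cells 2 of the 4, Uba7 and Ube2l6, were lower, against 3.67% of all genes (3 of the 4 with 29 libraries, against 3.16%).

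Rsad2 and Cmpk2, a nucleotide kinase of mitochondria that feeds the reaction of viperin, were both lower in every KO library than in every WT library at rest. Rsad2 stood at 5.98, 3.71 and 3.29 CPM in KO and at 12.2, 9.75 and 11.96 CPM in WT. Its log2 fold change was -1.39 (SE 0.526, edgeR FDR 0.101; with 29 libraries SE 0.218, FDR 4.57e-05). Cmpk2 stood at 15.0, 11.4 and 10.4 CPM in KO and at 21.7, 21.8 and 20.3 CPM in WT (a change of -0.80 on the log2 scale, edgeR FDR 0.0495). The genotypes did not overlap in either gene, and the difference between the 2 fold changes was not tested.

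Mx1 and Isg20 varied little between the untreated libraries of a genotype. Mx1, whose product is a dynamin-like GTPase, stood at 99.2, 98.3 and 97.4 CPM in KO and at 145, 151 and 152 CPM in WT (a change of -0.60 on the log2 scale, SE 0.155, edgeR FDR 0.0111). Isg20, an exonuclease of single-stranded RNA, stood at 4.91, 5.27 and 5.15 CPM in KO and at 9.51, 9.42 and 9.35 CPM in WT (a change of -0.88 on the log2 scale, SE 0.231, edgeR FDR 0.0124). Within a genotype the 3 untreated libraries of each gene lay close together, and every untreated KO library was under every untreated WT library.

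**Figure D2:**
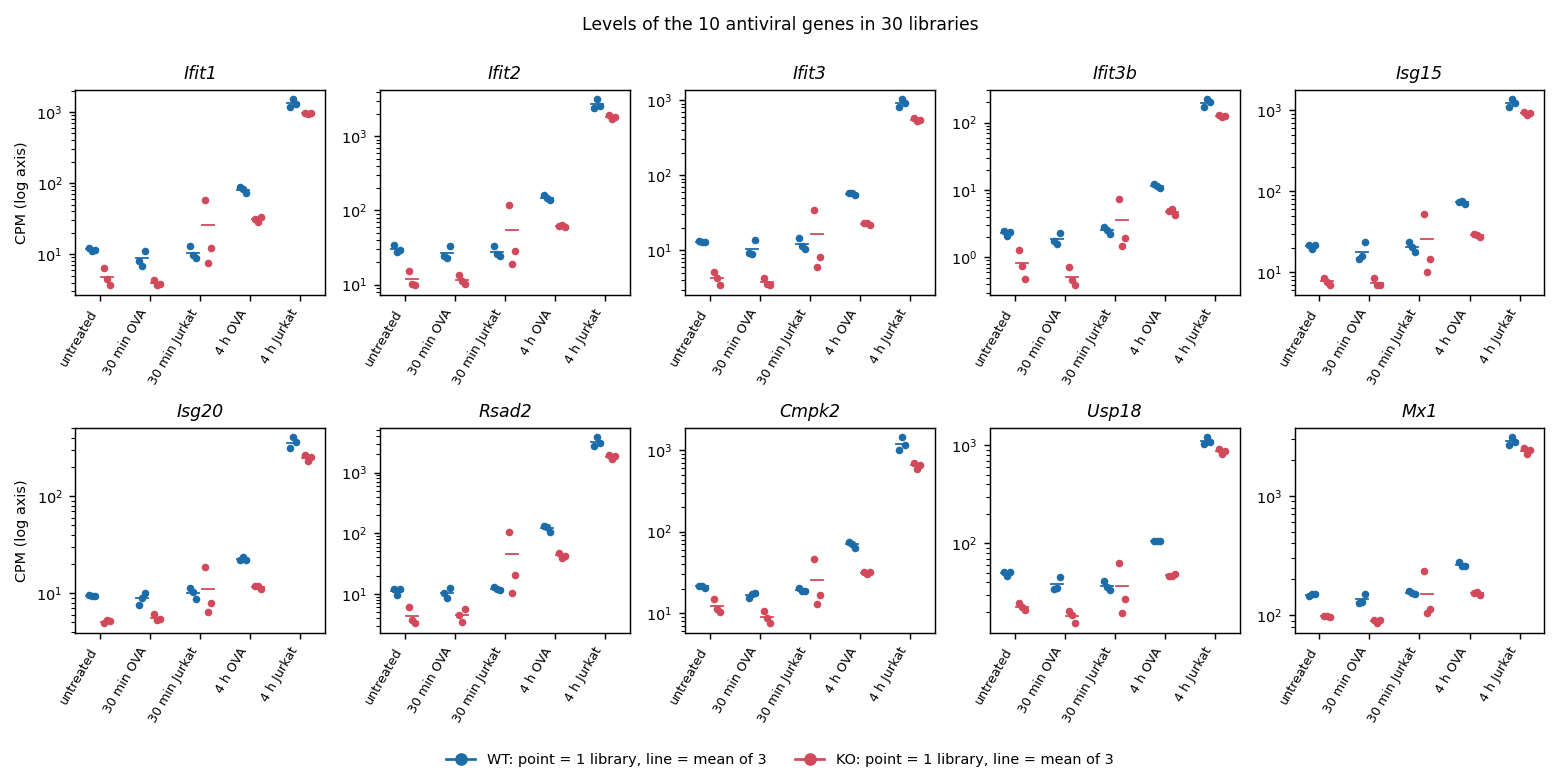
Level of each gene in all 30 libraries (CPM, log axis), with 1 point per library and a line at the mean of the 3 libraries of a group. Both genotypes are at their highest after 4 h of Jurkat cells, and KO lies under WT in every condition except 30 min of Jurkat cells, where the genotypes overlap and KO library 1, with library 3 for Rsad2, lies above every WT library; Isg15 runs from 6.95 to 1364 CPM.

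After 30 min of OVA no member was called against untreated cells in either genotype with all libraries. By edgeR's test 0 of 10 rose or fell against untreated cells in WT (median log2 -0.26, background 5.51% higher and 5.15% lower) and 0 of 10 in KO (median -0.14, background 1.88% in each direction); unadjusted p was under 0.05 for 0 of 10 in both, and DESeq2 called 0 in both. With 29 libraries 1 of 10 fell in WT, Usp18 (log2 -0.38, edgeR FDR 0.0116, background 5.15% lower), and a fit of the 6 compared libraries alone called 2 lower, Usp18 and Cmpk2 (background 3%, 411 of 13683 genes). Isg15, for example, stood at 14.5, 15.9 and 23.7 CPM in WT, where library 3 was the highest for all 10 genes, and at 8.62, 6.95 and 6.95 CPM in KO. The response, KO minus WT, was called for 0 of 10 (median log2 0.13, background 0%), with unadjusted p under 0.05 for 0 and 0 called by DESeq2. KO libraries lay under WT libraries for all 10 genes (14.9% of all genes did so), with KO levels from 30.5% of WT for Ifit3b to 65.9% for Mx1. With all libraries 4 of the 10 passed edgeR's test, Ifit3, Isg15, Usp18 and Mx1, against 6.13% of all genes lower. With 29 libraries 10 of 10 passed (largest FDR 0.000630), against 6.73%. Leaving out 1 of the 6 libraries compared at a time left 1 to 4 members called, with 1 without KO library 2 or WT library 3 and 2 without KO library 1 or 3.

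After 30 min of Jurkat cells no member was called in WT with all libraries. By edgeR's test 0 of 10 changed against untreated cells (background 14.2% higher and 14.5% lower), unadjusted p was under 0.05 for 1 gene, Usp18, and DESeq2 called 0. With 29 libraries Usp18 fell, from 51.4, 46.9 and 51.6 to 41.4, 35.8 and 33.6 CPM (log2 -0.44, edgeR FDR 0.00137, background 14.6% lower). In KO all 10 rose with all libraries (background 8.72%), with Rsad2 at the largest log2 fold change (3.40, SE 0.488, edgeR FDR 1.17e-05). Without library 1, 7 of 10 rose (background 5.70%) and the sizes were smaller. Rsad2 then rose to 354% of the resting KO level (log2 1.82, edgeR FDR 1.54e-06), Ifit1 to 205% (log2 1.04, FDR 0.00102) and Isg15 to 160.1% (log2 0.68, FDR 0.00836). Cmpk2, Usp18 and Mx1 did not pass, at log2 0.28, 0.041 and 0.15. A fit of the 6 compared libraries alone called 3 of 10 (background 4.86%). Libraries 2 and 3 also differed from each other, library 3 being higher for all 10 genes. Against OVA at the same time, 10 of 10 were higher with Jurkat cells in KO (median log2 1.90, background 5.30%), 8 of 10 with 29 libraries (background 2.91%), 2 of 10 in a fit of these 6 libraries alone (background 2.60%), and 0 of 10 in WT (median 0.19, background 11.9%, unadjusted p under 0.05 for 0 of 10, DESeq2 0). In WT 1 of 10 was higher with Jurkat cells than with OVA with 29 libraries, Mx1 (log2 0.18, edgeR FDR 0.0194, background 12%, 1803 of 15002 genes), and 2 in a fit of these 6 libraries alone, Mx1 and Cmpk2 (background 10.3%).

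The comparison of KO with WT after 30 min of Jurkat cells turned on library 1. With it, 2 of 10 were higher in KO, Rsad2 (log2 1.91, edgeR FDR 0.00447) and Ifit1 (1.31, FDR 0.0302), against 5.58% of all genes, and the genotypes overlapped for all 10. A fit of these 6 libraries alone called 0 (background 4.26% higher), 4 were called without KO library 2, and 1 without WT library 2 or 3. Without it 5 of 10 were lower in KO, against 3.16% of all genes, and none was higher (4.43%). These were Ifit3 (-0.77, edgeR FDR 0.00279), Isg15 (-0.73, FDR 0.00327), Isg20 (-0.48, FDR 0.0152), Usp18 (-0.66, FDR 0.000411) and Mx1 (-0.50, FDR 7.66e-06). Ifit1 was then at -0.074 (FDR 0.876) and Rsad2 at 0.34 (FDR 0.352). The test of the response itself, KO minus WT, called 0 of 10 with all libraries (background 0% higher), although unadjusted p was under 0.05 for all 10 and DESeq2 called 2. With 29 libraries it called 1, Rsad2 (1.73, edgeR FDR 0.0235), against 0.0200% of all genes. It called 9 without KO library 2 and 3 without KO library 3.

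**Figure D3:**
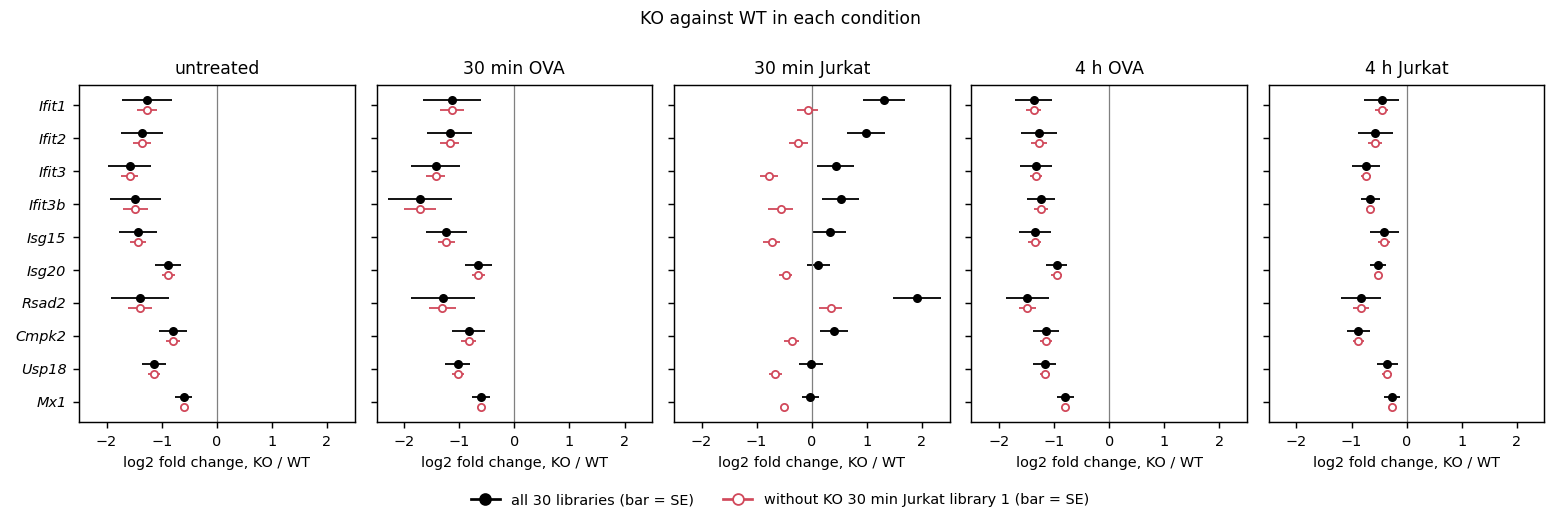
Log2 fold change of KO against WT for each gene in each condition, with its SE, for all 30 libraries (filled) and without KO 30 min Jurkat library 1 (open). All 10 genes lie under 0 in 4 of the conditions, at medians of -1.32 (untreated), -1.15 (30 min OVA), -1.26 (4 h OVA) and -0.54 (4 h Jurkat), and at 30 min of Jurkat cells the 2 fits differ.

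After 4 h of OVA all 10 genes were higher than in untreated cells in both genotypes, and KO stayed lower. In WT the rise was 1.79-fold for Mx1 to 10.7-fold for Rsad2 (median 3.96-fold, 10 of 10 by edgeR against 11.9% of all genes). In KO it was 1.56-fold to 9.96-fold for the same 2 genes (median 4.45-fold, 10 of 10 against 5.94%). Rsad2 reached 133, 126 and 103 CPM in WT and 46.9, 39.7 and 42.1 CPM in KO. Ifit1 reached 87.5, 82.2 and 71.4 CPM in WT and 30.8, 28.7 and 33.6 CPM in KO. In both genes all treated libraries were above all untreated libraries of their genotype.

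No difference in the size of this rise was called between genotypes by edgeR's test. The response of KO minus that of WT had a median log2 of -0.05 and ran from -0.35 for Cmpk2 to 0.25 for Ifit3. It was called for 0 of 10 (background 0% higher and 0.0405% lower), with unadjusted p under 0.05 for 0 of 10 and 0 called by DESeq2, and also for 0 with 29 libraries. The SE of these differences was 0.218 for Mx1 and 0.662 for Rsad2 with all libraries. A difference of the size of its SE cannot pass the threshold, so differences well above these values could also have gone uncalled. KO against WT after 4 h of OVA was called for every member, with 10 of 10 lower in KO (background 6.35%), none overlapping (16.8% of all genes), and 10 called without each library in turn. KO held 35.6% of WT for Rsad2 (edgeR FDR 0.0100), 39.1% for Isg15 (FDR 0.00153) and 57.7% for Mx1 (FDR 0.000577). Usp18, with the least spread of the 10 in WT, stood at 107, 106 and 106 CPM in WT and 46.4, 47.0 and 48.8 CPM in KO.

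Jurkat cells for 4 h gave the highest levels of all 10 genes in both genotypes. The summed level of the 10 genes was 13471 to 17168 CPM in WT, against 311 to 324 CPM at rest, and 9742 to 10850 CPM in KO, against 162 to 186 CPM at rest. In WT the rise ran from 19.2-fold for Mx1 to 286-fold for Rsad2, with a median of 64.7-fold. In KO it ran from 24.2-fold to 422-fold for the same genes, with a median of 123-fold. All 10 rose in both genotypes by edgeR's test, but this contrast called 38.9% of all genes higher in WT and 37.5% in KO. Scaled to total counts rather than by TMM, the median of all genes in this contrast was -0.42 in WT and -0.37 in KO on the log2 scale, and all 10 genes were still called higher. Summed T-lineage markers were 192 to 237 CPM in these WT libraries and 158 to 183 CPM in the KO libraries, against 66.1 to 85.1 CPM in libraries with no Jurkat cells. How the counting treated human reads is not given in the sources used here, and the part of Jurkat RNA in the levels was not tested.

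After 4 h of Jurkat cells KO was again the lower genotype, at 54.5% to 83.2% of WT with a median of 68.6%. Rsad2 reached 2783, 3789 and 3113 CPM in WT and 1909, 1702 and 1849.8 CPM in KO. Isg15 reached 1095, 1364 and 1222 CPM in WT and 958, 885 and 932 CPM in KO, and Cmpk2 1015, 1429.6 and 1147 CPM in WT and 704, 591 and 661 CPM in KO. Every WT library was above every KO library for all 10 genes (20.4% of all genes did so), and WT library 2 was the highest of its group for all 10. With all libraries 4 of 10 were lower in KO by edgeR's test, against 13.5% of all genes. They were Cmpk2 (KO at 54.5% of WT, FDR 0.00325), Ifit3 (60.02%, FDR 0.0405), Ifit3b (63.4%, FDR 0.00534) and Isg20 (69.9%, FDR 0.0114). With 29 libraries all 10 were lower (largest FDR 0.00654), against 13.7%. DESeq2 with all libraries called 1, and 2 were called without KO library 2 or without WT library 2.

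Whether KO cells responded more than WT cells in relative terms was tested as the difference of the responses. With all libraries none of the 10 passed edgeR's test (background 1.72% higher), with unadjusted p under 0.05 for 2 and 0 called by DESeq2. With 29 libraries 6 of 10 had a larger rise in KO (background 1.99%), and the same number passed in a fit of the 4 groups compared alone (background 1.59%). The largest was Isg15, which rose 119-fold in KO and 58.5-fold in WT (difference of log2 1.03, SE 0.183, edgeR FDR 0.00122). Ifit1 (0.82, FDR 0.0276), Ifit2 (0.79, FDR 0.0247), Ifit3 (0.85, FDR 0.00722), Usp18 (0.79, FDR 0.000885) and Mx1 (0.34, FDR 0.0130) passed as well. Ifit3b (0.82), Rsad2 (0.56), Isg20 (0.37) and Cmpk2 (-0.081, SE 0.157) did not. The 2 responses start from different resting levels, and in CPM the KO level after 4 h stayed under the WT level for each gene.

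**Figure D4:**
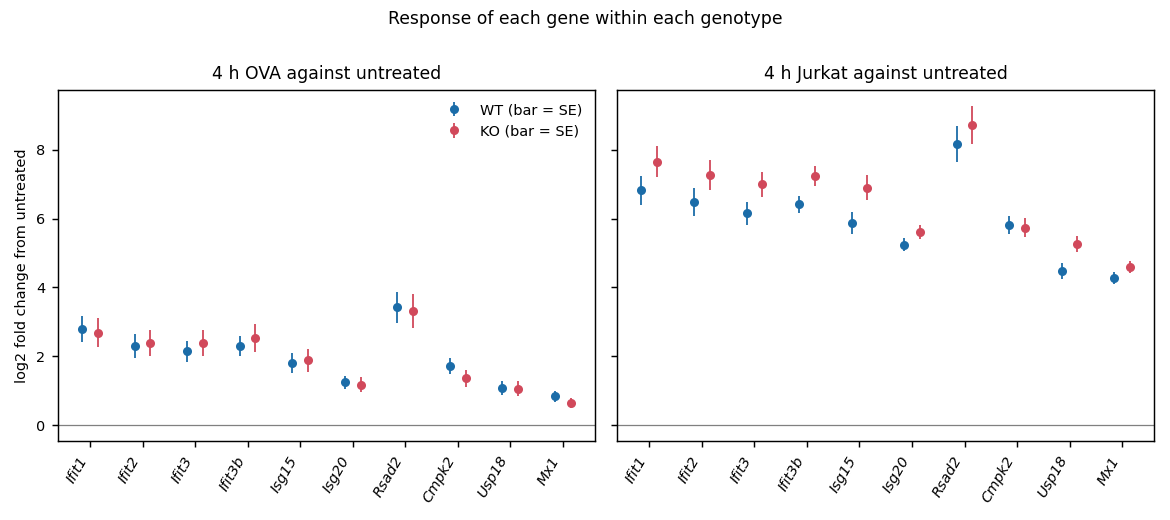
Log2 fold change from untreated cells after 4 h of OVA (left) and 4 h of Jurkat cells (right) for each gene in WT and KO, with its SE, from the fit of all 30 libraries. After OVA the genotypes lie side by side, from 0.64 for Mx1 in KO to 3.42 for Rsad2 in WT, and after Jurkat cells KO lies above WT for 9 of the 10 genes, all but Cmpk2.

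Set against OVA at the same time, 4 h of Jurkat cells gave levels 10.4-fold (Usp18) to 26.8-fold (Rsad2) higher in WT and 15.5-fold (Mx1) to 42.3-fold (Rsad2) higher in KO. All 10 passed edgeR's test in both genotypes, against 37.2% and 36.3% of all genes. Against untreated cells rather than OVA, Rsad2 had the largest fold change at 4 h and Ifit1 the next. Mx1 had the smallest. This held for both treatments in both genotypes.

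Levels of different genes were compared as CPM per kilobase of exon. In untreated WT cells Mx1 was the highest at 39.4 CPM per kb (range 38.3 to 40.0), followed by Isg15 at 27.7 (25.8 to 28.7) and Usp18 at 17.9 (16.8 to 18.5), with no overlap between these neighbours. Ifit2 at 7.76 and Ifit3 at 7.39 overlapped, as did Cmpk2 at 5.11 and Isg20 at 5.07. Rsad2, at 2.60, was the lowest but for Ifit3b at 1.16. Untreated KO cells had the same 3 genes on top, Mx1 at 26.0, Isg15 at 10.3 and Usp18 at 8.13 CPM per kb. After 4 h of Jurkat cells Isg15 was the highest in WT, at 1623 CPM per kb, and Mx1 (756), Rsad2 (745) and Ifit2 (687) came next with overlapping libraries. Rsad2 thus moved from the ninth place to the third. In KO the first place was again that of Isg15, at 1224 CPM per kb, and Ifit3b was the lowest throughout.

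Some genes that carry the signal from the receptor to these promoters were lower in KO as well. Stat2 (KO at 85.1% of WT, edgeR FDR 0.0224) and Irf9 (78.3%, FDR 4.15e-06), subunits of ISGF3, were lower in untreated KO cells. The receptor chains Ifnar1 and Ifnar2 and the kinases Jak1 and Tyk2 did not pass, at log2 -0.074, -0.066, 0.040 and -0.075. Lower in KO after 4 h of Jurkat cells were Ifnar1 (-0.18, edgeR FDR 0.00115), Ifnar2 (-0.28, FDR 3.08e-06) and Tyk2 (-0.14, FDR 0.0165). The response to 4 h of Jurkat cells, KO minus WT, was called for Irf9 (0.28, edgeR FDR 0.0111) and Ifnar2 (-0.21, FDR 0.0155). With 29 libraries Irf9 rose more in KO (log2 1.07) than in WT (0.78). Ifnar2 fell in both genotypes, and more in KO (log2 -0.51) than in WT (-0.30).

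Interferon transcripts were scarce outside the 4 h Jurkat groups, at 0 to 35 counts per library. Of 19 type I and III interferon genes listed, 13 were tested. Their summed counts in untreated libraries were 2 to 6 per library, with 0 counts of Ifnb1 in all 6. After 4 h of Jurkat cells they summed to 35.7 to 62.5 CPM in WT and 12.3 to 15.2 CPM in KO. All 13 tested were lower in KO by edgeR's test (median log2 -1.77), against 13.5% of all genes. With so few counts elsewhere, the 13 passed the filter on low counts through the 4 h Jurkat groups. The filter can thus favour genes that are high in WT there, so the count of 13 is not independent of it. Ifnb1 stood at a mean of 3.68 CPM in KO and 12.5 CPM in WT (a log2 change of -1.77, edgeR FDR 3.86e-06). Beside this, the median of the 10 antiviral genes in the same comparison was -0.54.

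Other interferon-stimulated genes, a list of 30, were also lower in KO. The list was chosen with earlier results of these data known, so its counts are not independent of them. In untreated cells 30 of 30 were lower in KO by edgeR's test (median log2 -0.70), against 3.97% of all genes. After 30 min of OVA 28 were lower (background 6.13%), and after 4 h of OVA 30 (median -0.84, background 6.35%). After 4 h of Jurkat cells 25 were lower (median -0.42, background 13.5%), and 30 with 29 libraries (background 13.7%). After 30 min of Jurkat cells 17 were lower (background 3.67%), and 27 with 29 libraries (median -0.56, background 3.16%). The members of highest level were Samhd1, Parp14, Irf7 and Trim30a. In untreated cells KO held 47.2% of WT for Irf7, a factor that drives interferon genes (edgeR FDR 1.29e-05), 61.9% for Trim30a, 70.8% for Parp14 and 83.7% for Samhd1, which breaks down nucleotides. The relatives Ifit1bl1 and Ifit1bl2 were not called between genotypes at rest with all libraries (log2 -0.81 and 0.058), and with 29 libraries Ifit1bl1 was lower in KO (log2 -0.81, edgeR FDR 0.00760). After 30 min of Jurkat cells Ifit1bl1 was higher in KO (1.37, edgeR FDR 0.0280) with all libraries and was not called with 29. Both rose in WT after 4 h of Jurkat cells (log2 6.64 and 4.30).

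Markers of other cell types also moved with genotype. Their lists, too, were chosen with earlier results of these data known. In untreated cells 8 of 8 basophil or mast cell markers were higher in KO by edgeR's test, against 6.00% of all genes, summing to 59.4 to 91.5 CPM in KO and 23.6 to 30.1 CPM in WT. Of 9 stromal markers 7 were higher, at 1306 to 1682 CPM in KO and 999 to 1146 CPM in WT. Of 10 markers of plasmacytoid dendritic cells, a cell type known for interferon production, 4 were lower (3.97% of all genes were) and 1 higher in KO, at 2470 to 2671 CPM in KO and 2773 to 2851 CPM in WT. None of these markers was at 0 in an untreated group, and the part of these cells in the lower antiviral genes of KO was not tested.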

How the data were processed

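RNA of 30 libraries from 10 groups, prepared with TruSeq version 2 reagents per the labels' protocols, was analysed from the deposited table of raw read counts per gene. Per the submitters' processing notes, the authors used STAR 2.5, featureCounts 1.5.0-p1 and DESeq2 on the mm10 build; strand use and multi-mapping reads: not given in the sources used here.

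Counts were filtered with filterByExpr, scaled by TMM and fitted over all 10 groups with edgeR 4.0.16 (quasi-likelihood, R 4.3.3). P-values were adjusted by Benjamini-Hochberg over the 14808 genes tested, with a threshold of 0.05. A standard error is the log2 fold change divided by the root of the F statistic, an approximation. CPM use TMM-scaled library sizes, and CPM per kilobase use GENCODE exon lengths. The procedure was tested on simulated data for untreated KO against WT, with the same spread for all genes and no library set apart. That test does not cover the wider spread of the members here.

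The 10 members and all gene lists were chosen with earlier results of these data known. All members are named. Of the other lists, the ISG15 enzymes and genes of the receptor pathway are named. Of the rest those of highest mean level are named, and Flt3, Itgax and Zbtb46. One listed gene is not reported here. Alternatives were other scalings and filters, a replicate block, the compared groups alone, DESeq2 1.42.0, and leaving out libraries. Depth ranged from 9.73 M to 51.6 M counts, and counting error is largest for Ifit3b, with as few as 4 counts in a library.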

Additional observations from a re-analysis of the deposited data

How the results depend on the processing

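Of 1950 alternative values of single members, 1717 kept direction and side of the threshold, 108 passed it only under the alternative, 65 passed it only in the fit of all libraries, and 60 changed sign, 12 of them called in one of the 2 fits and 48 in neither. The 12 are KO against WT at 30 min of Jurkat cells without KO library 1, each gene counted in 3 settings. Of these settings 2 are the same fit, and the other also left out KO 30 min OVA library 3, so they are not separate checks. The 1950 values hold this repeat wherever the KO 30 min Jurkat group was compared. In this comparison the log2 values, to within rounding, were Ifit1 -0.074, Ifit3 -0.77, Isg15 -0.73 and Isg20 -0.48. Ifit2 (-0.25), Ifit3b (-0.57) and Cmpk2 (-0.37) also changed sign there, called in neither fit. Of the 48, 16 belong to that comparison, 19 to the response to 30 min of OVA, 8 to that to 4 h of OVA, 3 to 30 min of Jurkat cells against untreated in WT and 2 to the response to 4 h of Jurkat cells. The highest values without a library were those without KO library 2, at 1.75, 0.84, 0.71 and 0.40 for Ifit1, Ifit3, Isg15 and Isg20.

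The number of members called changed by over 1.5 times as follows. KO against WT after 30 min of OVA (4) became 8 with DESeq2, 8 with no filter, and 10 with the compared groups alone or without KO 30 min Jurkat library 1, with or without KO 30 min OVA library 3. KO against WT after 30 min of Jurkat cells (2) became 0 with the compared groups alone and 5 without that library in both settings. KO against WT after 4 h of Jurkat cells (4) became 1 with DESeq2 and 10 with the compared groups alone or without that library in both settings. The response to 30 min of Jurkat cells (0) became 3 with no filter, 2 with DESeq2 and 1 without that library in both settings, and the response to 4 h of Jurkat cells (0) became 6 with the compared groups alone or without that library in both settings. In WT, 30 min of OVA against untreated (0) became 2 with the compared groups alone and 1 without that library in both settings, 30 min of Jurkat cells against untreated (0) became 1 in all 3 settings, and Jurkat cells against OVA at 30 min (0) became 2 with the compared groups alone and 1 without that library in both settings. In KO, with the compared groups alone, 30 min of Jurkat cells against untreated (10) became 3 and Jurkat cells against OVA at 30 min (10) became 2. The cause was not tested.

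Leaving out 1 compared library at a time gave 5 to 6 members called for KO against WT untreated, 1 to 4 after 30 min of OVA, 1 to 5 after 30 min of Jurkat cells, 10 after 4 h of OVA, 2 to 4 after 4 h of Jurkat cells, and 0 to 9 for the response to 30 min of Jurkat cells. Over all genes tested, deviations of same-numbered libraries of a genotype from their group means had a median r of 0.0148 (6 of 60 pairs over 0.1). For other-numbered libraries of a genotype it was -0.0064 (2 of 120 pairs over 0.1). Over the 10 members, KO library 1 had the highest mean log2 level in every KO group, while the highest WT library varied by group. Whether the numbers pair the samples is therefore not settled. With the replicate block 7 members were called for KO against WT untreated, 6 after 30 min of OVA, 2 after 30 min of Jurkat cells, 10 after 4 h of OVA and 4 after 4 h of Jurkat cells.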

Other observations

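The genes whose group means followed the mean of the 10 members most closely were Iigp1 (Pearson r 0.997 over the 10 group means of log2 CPM), Oasl1 (0.997), Gm12250 (0.995), Phf11d (0.994) and Ifit1bl1 (0.994). Of 10715 genes compared, 2179 (20.3%) had an r over 0.9. The closest gene to Isg15 was Iigp1 (0.998), to Usp18 Gm12250 (0.998), to Isg20 Gbp2 (0.999) and to Mx1 Slfn5 (0.999).

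The nearest tested genes on both sides of Isg15 moved in the same directions as Isg15. Agrn, 1936 bases away, was lower in untreated KO cells (log2 -0.75, edgeR quasi-likelihood FDR 3.99e-05) and rose in WT after 4 h of Jurkat cells (3.22). AW011738, 2466 bases away, was lower in untreated KO cells (-1.45, edgeR FDR 0.000558) and rose in the same WT comparison (4.51). Whether reads were assigned by strand is not given in the sources used here. Beside Isg20, Aen, 4591 bases away, did not pass between untreated genotypes (-0.08, edgeR FDR 0.421). Mfge8, on its other side and 213372 bases away, was higher in untreated KO cells (0.79, edgeR FDR 1.16e-06). Lower there were Rnf144a, the neighbour of Rsad2 and Cmpk2 (-0.26, edgeR FDR 0.0225), and Fam3b, beside Mx1 (-2.05, FDR 0.00529). The remaining nearest tested genes were not called between untreated genotypes.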
